A study of Mus musculus with 11 samples.

Results

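Axon guidance genes were followed in sympathetic ganglia of aged mice that lack apolipoprotein E and of wild-type mice. The genes were the semaphorins of classes 3 to 7, plexins, neuropilins, Slits, Robos, netrins, Unc5 and Dcc receptors, ephrins, Eph receptors and the collapsin response mediators, taken by the gene symbol of the array annotation. The rule found 111 probe sets of 65 genes among the 20380 probe sets that carry 1 gene symbol, which represent 12393 genes. One matched gene, Unc50, shares only the first letters of its symbol with the netrin receptors and is not known as a guidance gene, so counts are given with and without it. Apoe-deficient ganglia (apoE-/-, 6 arrays) were compared with wild-type ganglia (5 arrays). All mice were C57BL males of 78 weeks, came from the Jackson Laboratory and ate normal chow, and the ganglia were cut from frozen tissue by laser capture. The labels name no animal for an array, so the p-values measure the spread between these samples, which may be technical, and they are too small if arrays share an animal.

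Axon guidance molecules steer growing nerve fibres by attraction or repulsion. Netrins act through Dcc and Unc5 receptors, Slits through Robos, semaphorins through plexins and neuropilins, and ephrins through Eph receptors. The collapsin response mediators are cytosolic proteins that bind tubulin and carry semaphorin signals to the cytoskeleton. In sympathetic neurons these systems guide ganglion formation and the choice of target tissue during development, and many of the genes stay on in adult neurons, vessels and immune cells.

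Most tested guidance genes had a lower mean in Apoe-deficient than in wild-type ganglia, by small amounts, and 1 passed the test. The netrin receptor gene Unc5c fell by 0.59 on the log2 scale (SE 0.13, limma adjusted p = 0.038). Of the 65 genes, 39 had signals above the filter on low values, that is, above the 40th percentile of all values on at least 5 arrays, and were tested. Of these, 1 was called lower and 0 higher, or 2.56% of the 39, where the test called 0.676% of all 8433 genes lower, 1.26% higher and 1.93% in either direction. At an unadjusted p under 0.05, 10 of the 39 were lower and 1 was higher, where 12.3% of all tested genes were lower and 7.92% higher, or 20.3% in either direction. When each probe set was tested on its own, 1 of the 54 members above the filter was called, the same Unc5c probe set, against 1.43% of all. Without the filter 0 member genes were called, against 1.05% of all. The mean was lower in 28 of the 39 (71.8%), against 57.0% of all tested genes. The median log2 difference was -0.17 over the members and -0.04 over all tested genes. Without Unc50 the count was 28 of 38 and the median -0.18. With the probe sets of a gene averaged, 32 of 39 were lower, against 55.1% of all tested genes. Several probe sets passed the filter for 12 members, and for 7 of these they disagreed in direction. Differences are Apoe-deficient minus wild-type on the scale log2(signal + 16) after quantile normalisation, which understates changes of low genes.

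**Figure D1:**
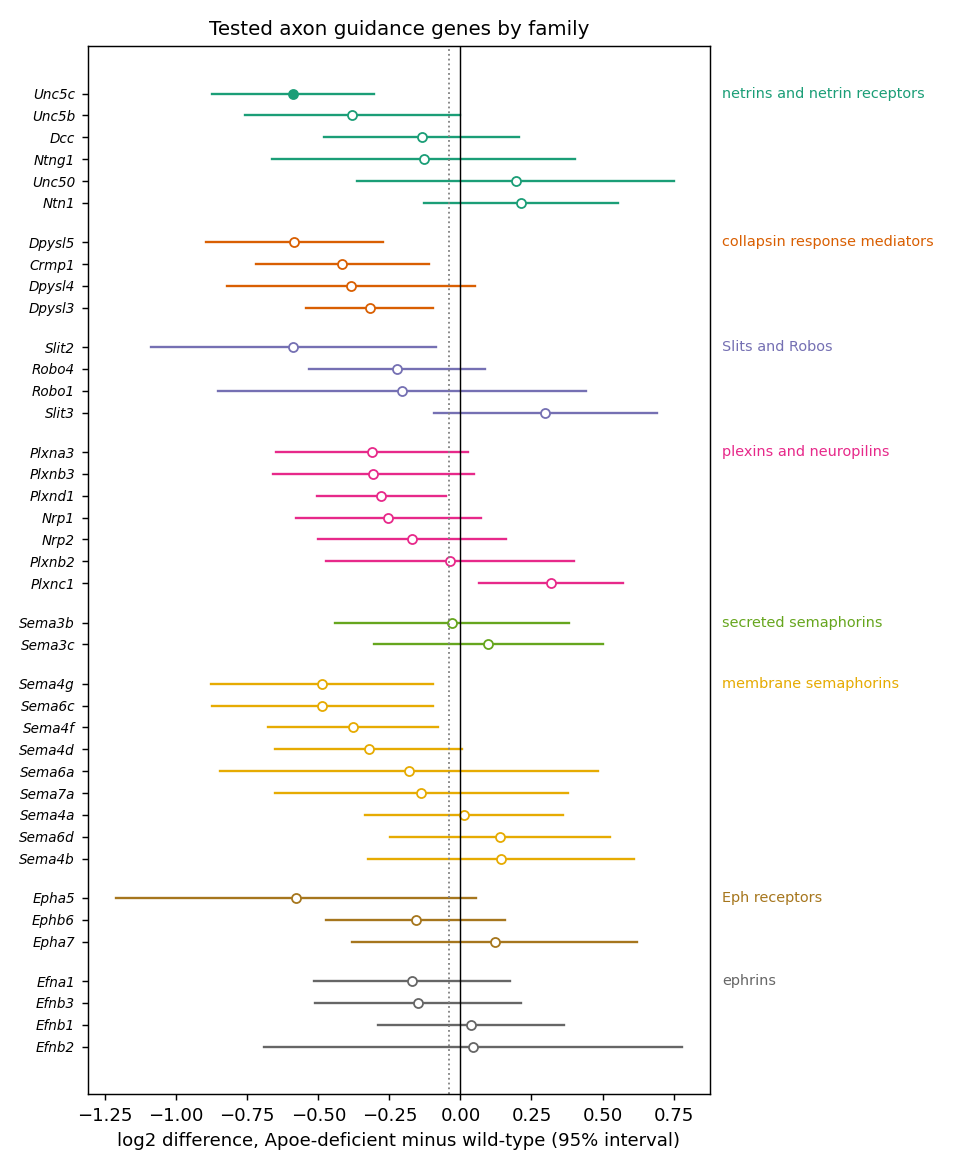
Log2 difference (Apoe-deficient minus wild-type) of the 39 tested axon guidance genes, grouped by family, with 95% intervals from limma. The filled point marks the gene past the adjusted threshold (Unc5c), open points did not pass, and the dotted line is the median of all tested genes (-0.04). The 4 collapsin response mediators all lie left of 0, and Plxnc1 is the member farthest right (0.32).

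The families differed in how far they lay from the median of all genes. The collapsin response mediators had the lowest median (-0.40), with 4 of 4 tested genes lower in mean. Plexins and neuropilins followed (-0.25, 6 of 7 lower), then Slits and Robos (-0.21, 3 of 4), membrane semaphorins (-0.18, 6 of 9), Eph receptors (-0.16, 2 of 3), and netrins with their receptors (-0.13, 4 of 6). The ephrins (-0.05, 2 of 4) and the secreted semaphorins (0.03, 1 of 2) lay nearest 0. These medians are descriptions of few genes, and no difference between families was tested. In bulk tissue, fewer cells of a type and less RNA per cell cannot be told apart.

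Netrins and their receptors held the gene that passed. Netrin 1 is a secreted cue that attracts axons through Dcc and repels them when an Unc5 receptor takes part. The Unc5c probe set had signals of 323.0 (lowest), 389.7 (median) and 492.8 (highest) on the Apoe-deficient arrays. On the wild-type arrays its signals were 743.2, 641.5, 471.5, 550.9 and 580.7. After normalisation 5 of 6 Apoe-deficient arrays lay below all wild-type arrays, and only replicate 5 overlapped with them.
The means were 393 ± 59.5 in Apoe-deficient ganglia (SD, n = 6), against 598 ± 102 in wild-type ganglia (SD, n = 5). The 95% interval of the log2 difference ran from -0.87 to -0.30, and an exact two-sided permutation test gave p = 0.0065, where 0.0022 is the smallest possible. That test was run only for Unc5c, Dpysl5 and Crmp1, which were chosen with earlier results of these data known. Its p-values are not adjusted for that choice, so they add no separate support. The other Unc5c probe set passed the cutoff on 1 array only, with medians of 91.5 in Apoe-deficient and 90.7 in wild-type ganglia, so the call rests on a single probe set.

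The Unc5c call depended on single arrays. It was lost without Apoe-deficient replicates 2, 3 or 4 (adjusted p = 0.083, 0.094 and 0.078) and without wild-type replicates 1, 2 or 5 (adjusted p = 0.11, 0.11 and 0.079). The log2 difference stayed between -0.67 and -0.51 over all fits without 1 array. The hybridisation controls are RNAs added to each array in known amounts. Their mean log2 signal was split at its 2 widest gaps, which gives 3 levels by construction. The levels ran from 10.62 to 10.83 (low), 11.51 to 11.85 (middle) and 12.24 to 13.02 (high). The middle and high levels lay nearer each other than the low and middle levels did. The low level held only Apoe-deficient replicates 2, 3 and 4. Blocked on the control level, the Unc5c difference was -0.48 (adjusted p = 0.22), and without the 3 low arrays it was -0.43 (adjusted p = 0.35). The low level held no wild-type array, so both differences rest on the arrays of the middle and high levels. The blocked fit and the fit without the low arrays are therefore not separate checks, for Unc5c or for any other gene. Within the high level, with 2 arrays a group, the difference was -0.76. Within the middle level, with 1 Apoe-deficient and 3 wild-type arrays, it was -0.12.

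No other gene of the netrin system passed. Unc5b, a netrin receptor gene also active in blood vessels, had signals of 272.9 (lowest), 331.4 (median) and 438.3 (highest) in Apoe-deficient ganglia. In wild-type ganglia it had 346.2, 483.3, 709.4, 351.9 and 373.4. The groups overlapped, and the log2 difference was -0.38 (SE 0.18, adjusted p = 0.25). The Unc5b difference was -0.21 without wild-type replicate 3, the array with its highest signal, and -0.19 blocked on the control level. The netrin gene Ntn1 had a difference of 0.21 (SE 0.16) with a 95% interval from -0.13 to 0.55, and 0.13 without Apoe-deficient replicate 2. Dcc, the attractive netrin receptor gene, lay at -0.14 and Ntng1, which encodes a membrane-anchored netrin, at -0.13. Unc50 lay at 0.19, while another of its 3 probe sets, all past the filter, gave -0.23.

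The collapsin response mediators were the family with the lowest median, although 0 of its 4 tested genes passed over all genes. All 4 had a lower mean in Apoe-deficient ganglia, where 57.0% of all tested genes did. At an unadjusted p under 0.05, 3 of the 4 were lower, against 12.3% of all tested genes. Dpysl5, whose protein CRMP5 restrains neurite growth in developing neurons, had signals of 499.9 (lowest), 625.6 (median) and 820.9 (highest) in Apoe-deficient ganglia. Its wild-type signals were 1107.6, 1135.1, 980.1, 791.4 and 891.9. After normalisation 4 of 6 Apoe-deficient arrays lay below all wild-type arrays and 6 of 6 below the wild-type mean. The log2 difference was -0.58 (SE 0.15), as large as that of Unc5c, with an adjusted p of 0.053. The exact two-sided permutation p, not adjusted for the choice of the gene, was 0.013.

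Crmp1, the gene of a mediator of semaphorin 3A signalling, had signals of 924.6 (lowest), 1180.0 (median) and 1687.5 (highest) in Apoe-deficient ganglia. Its wild-type signals were 1663.4, 1731.0, 1747.6, 1378.6 and 1489.6. Apoe-deficient replicate 5 lay inside the wild-type range, and after normalisation 4 of 6 Apoe-deficient arrays lay below it. The log2 difference was -0.42 (SE 0.14, adjusted p = 0.14, unadjusted exact permutation p = 0.028). Dpysl3, the CRMP4 gene, had signals of 3964.8 (lowest), 4857.1 (median) and 5818.0 (highest) in Apoe-deficient ganglia, and of 6573.3, 6566.9, 6502.6, 5907.1 and 5364.7 in wild-type ganglia. Its log2 difference was -0.32 (SE 0.10, adjusted p = 0.125), and its other probe sets past the filter gave -0.54 and 0.19. Dpysl4, the CRMP3 gene, lay at -0.39 (SE 0.20, adjusted p = 0.30), and its other probe set past the filter at 0.04. Probe sets of the same gene therefore disagreed in direction for Dpysl3 and Dpysl4, while Dpysl5 and Crmp1 had 1 probe set each.

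**Figure D2:**
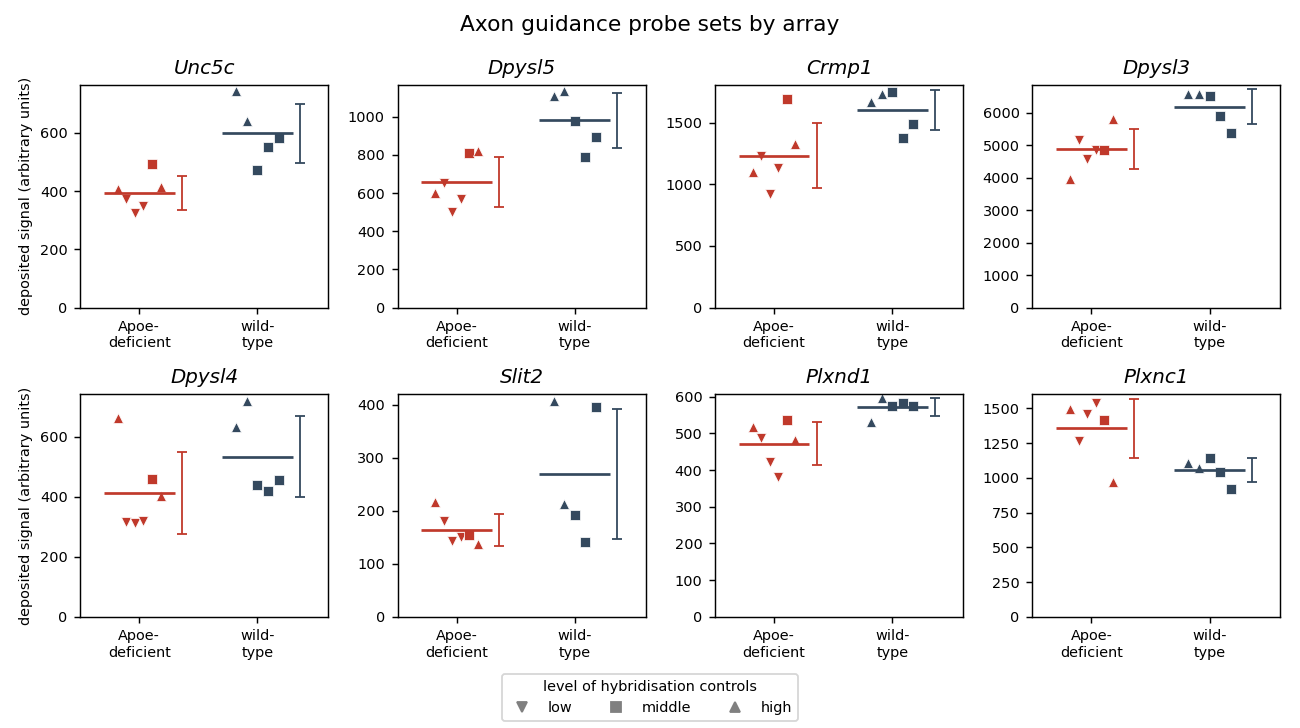
Deposited signal of 8 axon guidance probe sets on each array, Apoe-deficient left and wild-type right, with the group mean (line) and SD (bar). The symbols give the level of the hybridisation controls. For Unc5c the Apoe-deficient arrays lie between 323.0 and 492.8 and the wild-type arrays between 471.5 and 743.2. Plxnc1 is the gene of the 8 with the higher mean in Apoe-deficient ganglia.

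The 4 mediators took their lowest values on 3 Apoe-deficient arrays. Dpysl5 and Crmp1 were lowest on Apoe-deficient replicate 3, at -0.63 and -0.61 from their mean over 11 arrays, and Dpysl4 on Apoe-deficient replicate 2 (-0.52), both of the low control level. Dpysl3 was lowest on Apoe-deficient replicate 1 (-0.50), an array of the high level on which Dpysl4 stood 0.58 above its mean. Blocked on the control level, the log2 differences were -0.44 for Dpysl5, -0.21 for Crmp1, -0.37 for Dpysl3 and -0.20 for Dpysl4, with adjusted p-values from 0.28 to 0.70. Without the 3 low arrays they were -0.38, -0.22, -0.38 and -0.08. Within the high level 4 of 4 were lower in mean, and within the middle level 2 of 4 were.

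Neuron markers were set beside this family. Of 10 genes of neurons in general, among them Snap25, Uchl1 and Stmn2, 0 were called in either direction and the median log2 difference was 0.06. Their summed signal ran from 57997 to 87281 in Apoe-deficient ganglia, against 67047 to 87040 in wild-type ganglia. Of 8 measured noradrenergic neuron markers, among them Th and Dbh, all passed the filter, 0 were called and the median was 0.01. Their summed signal ran from 41736 to 84322 in Apoe-deficient ganglia, against 58036 to 87779 in wild-type ganglia, so the lowest sums of both lists were on Apoe-deficient arrays.

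The stretches around the RefSeq transcription starts of Unc5c, Dpysl5 and Crmp1 are shown because these genes were fixed by name. They were chosen with earlier results of these data known, and other members had differences as low or lower. RefSeq promoter sequences (GRCm38.p6, 250 bases before to 50 after each start) were found for 54 of the 65 genes. Capitals mark the GC box, GGGCGG or its reverse complement CCGCCC. Overlapping boxes run together.
Unc5c (chr3:141465314-141465613, plus strand): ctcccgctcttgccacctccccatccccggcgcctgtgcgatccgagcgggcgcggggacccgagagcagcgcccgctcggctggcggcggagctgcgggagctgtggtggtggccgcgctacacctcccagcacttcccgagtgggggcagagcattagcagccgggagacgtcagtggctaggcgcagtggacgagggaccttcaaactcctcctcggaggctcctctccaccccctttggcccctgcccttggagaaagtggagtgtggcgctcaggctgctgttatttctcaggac
Dpysl5 (chr5:30711314-30711613, plus strand): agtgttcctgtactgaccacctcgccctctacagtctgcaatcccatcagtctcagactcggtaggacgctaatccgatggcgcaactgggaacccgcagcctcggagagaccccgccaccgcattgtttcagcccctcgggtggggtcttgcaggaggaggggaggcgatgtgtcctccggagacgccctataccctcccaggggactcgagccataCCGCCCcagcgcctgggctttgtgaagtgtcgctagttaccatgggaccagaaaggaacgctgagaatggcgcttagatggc
Crmp1 (chr5:37241808-37242107, plus strand): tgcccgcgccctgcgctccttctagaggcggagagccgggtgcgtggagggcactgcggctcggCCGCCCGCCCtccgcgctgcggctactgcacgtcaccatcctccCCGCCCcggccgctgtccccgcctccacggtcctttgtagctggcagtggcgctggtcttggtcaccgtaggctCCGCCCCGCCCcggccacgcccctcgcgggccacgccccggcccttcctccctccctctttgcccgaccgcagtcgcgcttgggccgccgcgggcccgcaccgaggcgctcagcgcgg
The GC box was found 0 times in the Unc5c window, 1 time in the Dpysl5 window and 5 times in this Crmp1 window, and 2 times in the window of a second Crmp1 start. On either strand it was in 52 of 68 windows of the member genes (76.5%), against 35.7% of all 32851 windows. The set of all windows was not limited to genes on the array and not matched for G and C content. Whether the box is more frequent than in matched genes was not tested. The TATA box TATAAA was in 2 of the 68 windows (2.94%), against 13.6% of all, and the E-box CAGCTG in 8 (11.8%), against 16.3%. None of the 4 windows of Unc5c, Dpysl5 and Crmp1 held either. The 3 motifs were counted separately, and the counts describe letters only. The windows shown held 68.3%, 61.0% and 77.0% G and C, where the median was 64% over the members and 52.7% over all windows.

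Slits and Robos showed one ligand lower and one higher in mean, and 0 of 4 tested genes passed. Slit2 encodes a secreted repellent and had signals of 136.4 (lowest), 151.8 (median) and 215.8 (highest) in Apoe-deficient ganglia. Its wild-type signals were 406.2, 212.6, 191.6, 141.5 and 395.2, so wild-type replicates 1 and 5 stood apart and the groups overlapped. The log2 difference was -0.59 (SE 0.23, adjusted p = 0.19), as large as that of Unc5c with a wider interval, from -1.09 to -0.09. Slit3, a related ligand gene, had signals of 104.8 (lowest), 155.4 (median) and 265.4 (highest) in Apoe-deficient ganglia. Its wild-type signals were 138.0, 140.0, 140.0, 146.2 and 134.4, a much narrower range. The log2 difference of Slit3 was 0.30 (SE 0.18, adjusted p = 0.37), 0.65 blocked on the control level (adjusted p = 0.17) and 0.60 without the 3 low arrays (adjusted p = 0.24). It was 0.19 without Apoe-deficient replicate 5 and 0.23 without replicate 6, the arrays with its highest signals. The receptor genes Robo4, which is typical of vessels, and Robo1 lay at -0.22 and -0.20.

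Semaphorins of the secreted class 3 were near 0. Sema3c lay at 0.10 with a 95% interval from -0.30 to 0.50 and Sema3b at -0.03 with an interval from -0.44 to 0.38, while its other probe set past the filter gave 0.003. Membrane semaphorins were lower in mean in 6 of 9 tested genes, against 57.0% of all tested genes. At an unadjusted p under 0.05, 3 of the 9 were lower, against 12.3% of all tested genes. Sema4g had signals of 105.4 (lowest), 164.5 (median) and 178.9 (highest) in Apoe-deficient ganglia, and of 257.4, 297.5, 246.4, 123.6 and 241.2 in wild-type ganglia. All its Apoe-deficient arrays lay below 4 of the 5 wild-type arrays, and wild-type replicate 4 lay among them. The log2 difference of Sema4g was -0.49 (SE 0.18, adjusted p = 0.16), and without wild-type replicate 4 it was -0.65 (adjusted p = 0.036). Sema6c lay at -0.49 (SE 0.18, adjusted p = 0.16), with its other probe set past the filter at -0.35. Sema4f lay at -0.38 (SE 0.14, adjusted p = 0.16) and Sema4d, also known as CD100 on lymphocytes, at -0.32 (SE 0.15, adjusted p = 0.26), or -0.20 without Apoe-deficient replicate 3. Sema7a, which encodes the membrane-anchored ligand of plexin C1, lay at -0.14, and Sema6d and Sema4b at 0.14 each. Sema4a lay at 0.01, and its other probe set past the filter at -0.32.

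Among the 7 tested semaphorin receptor genes, Plxnc1 alone had a higher mean in Apoe-deficient ganglia. It had signals of 968.2 (lowest), 1440.2 (median) and 1537.1 (highest) in Apoe-deficient ganglia, and of 1106.9, 1069.0, 1141.5, 1042.8 and 918.0 in wild-type ganglia. After normalisation 5 of 6 Apoe-deficient arrays lay above all wild-type arrays, and replicate 6 lay among them. The log2 difference was 0.32 (SE 0.12, adjusted p = 0.16), and a second probe set past the filter gave 0.43. Plexin C1 is also made by myeloid cells, and 9 of 10 macrophage markers rose. Their summed signal ran from 9771 to 13750 in Apoe-deficient ganglia, against 5490 to 7150 in wild-type ganglia, and the part of these cells in the Plxnc1 value was not tested.

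Plxnd1, a semaphorin receptor gene typical of endothelium, was the 1 tested member whose groups did not overlap after normalisation, where 2.96% of all tested genes showed this (1.51% lower, 1.46% higher). Its signals were 382.1 (lowest), 485.5 (median) and 537.3 (highest) in Apoe-deficient ganglia, and 532.4, 595.8, 575.9, 584.1 and 574.1 in wild-type ganglia, so on the deposited scale Apoe-deficient replicate 5 and wild-type replicate 1 crossed. The log2 difference was -0.28 (SE 0.11, adjusted p = 0.17), and blocking on the control level gave -0.14. Of the 9 endothelial markers above the filter 0 were called and the median was 0.06. The summed endothelial signal ran from 1940 to 2843 in Apoe-deficient ganglia, against 1989 to 2505 in wild-type ganglia. Plxna3 (-0.31), Plxnb3 (-0.31), Plxnb2 (-0.04) and the co-receptor genes Nrp1 (-0.25) and Nrp2 (-0.17) did not pass. The 3 probe sets of Nrp1 all passed the filter and went the same way, at -0.25, -0.27 and -0.37.

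Ephrins and Eph receptors, which signal between touching cells, had few genes above the filter. Of 11 Eph receptor genes 3 were tested, and of 8 ephrin genes 4 were, with 0 called. Epha5 had signals of 150.3 (lowest), 211.8 (median) and 348.7 (highest) in Apoe-deficient ganglia, and of 750.9, 299.1, 199.0, 270.0 and 328.6 in wild-type ganglia. The value of wild-type replicate 1 stood far above the others. The log2 difference was -0.58 (SE 0.30, adjusted p = 0.29), between -0.76 and -0.29 over fits without 1 array, and the other Epha5 probe set past the filter gave -0.01. Ephb6 lay at -0.16, Epha7 at 0.12, and the ephrin genes Efna1 and Efnb3 at -0.17 and -0.15. Efnb1 lay at 0.04, with its other probe set past the filter at -0.06. Efnb2 gave 0.04 and -0.67 from its probe sets past the filter.

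**Figure D3:**
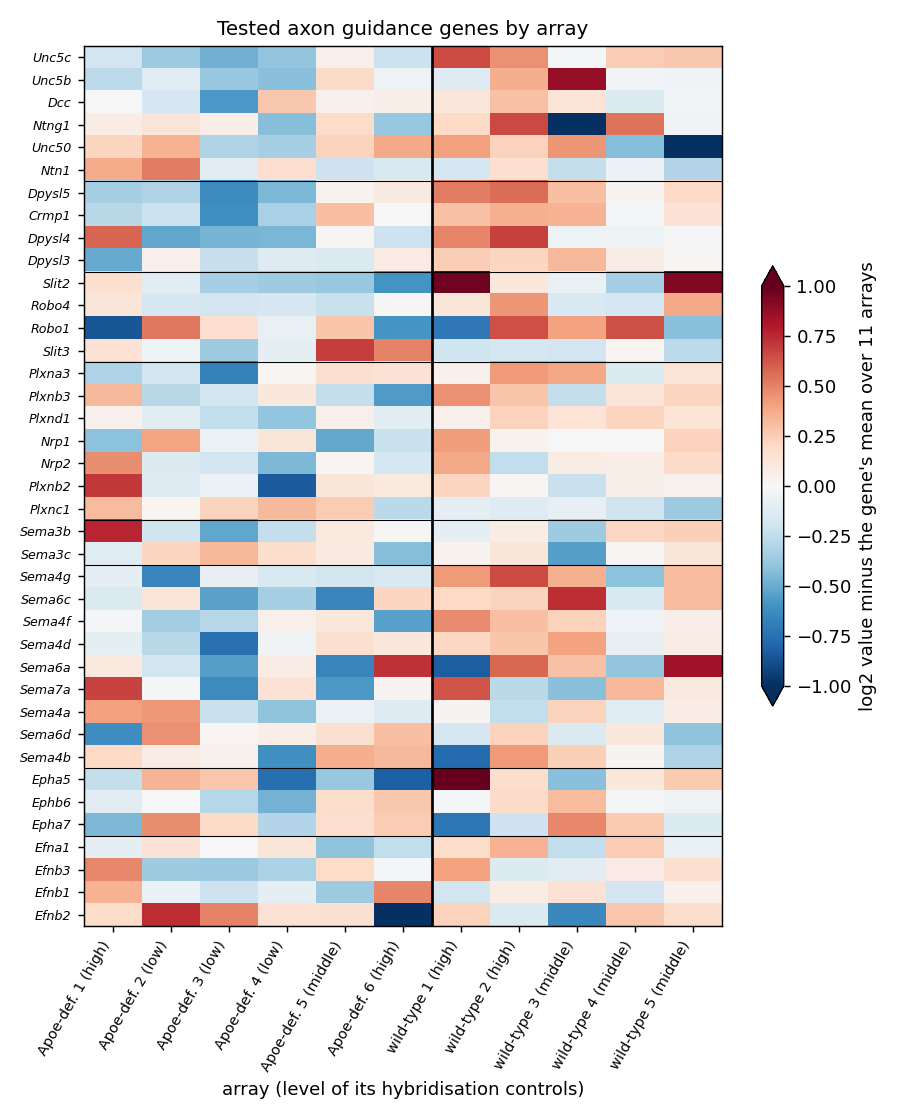
Log2 value of each tested axon guidance gene on each array minus the mean of that gene over the 11 arrays, Apoe-deficient arrays left of the black line. Thin lines separate the families and the brackets give the level of the hybridisation controls. The collapsin response mediators are mostly below their mean on the Apoe-deficient arrays and above it on wild-type replicates 1 and 2.

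Of the 39 tested genes, 31 had their lowest value on an Apoe-deficient array (79.5%), against 66.4% of all tested genes. For 18 of them (46.2%) it was on 1 of the 3 arrays of the low control level, against 34.5% of all genes, and for 10 of these on replicate 3. The highest value was on a wild-type array for 26 members (66.7%), against 44.7% of all genes. For 18 members (46.2%) it was on wild-type replicate 1 or 2, both of the high level, against 26.9% of all genes. By family, 3 of 4 collapsin response mediators and 4 of 7 plexins and neuropilins were lowest on a low-level array. So were 3 of 6 netrin genes, 4 of 9 membrane semaphorins, 1 of 2 secreted semaphorins and 1 of 3 Eph receptors. For the ephrins and for the Slits and Robos it was 1 of 4 each. Highest on a wild-type array were 4 of 4 mediators, 3 of 3 Eph receptors and 5 of 6 netrin genes. The counts were 3 of 4 for Slits and Robos, 6 of 9 for membrane semaphorins and 4 of 7 for plexins and neuropilins. They were 1 of 4 for ephrins and 0 of 2 for secreted semaphorins. Without the 3 low arrays 24 of the 37 tested members were lower in mean and the median was -0.11, against 57.0% and -0.04 over all genes. In that fit 0 members were called, where 24 of all 8165 tested genes were. Blocked on the control level, 25 of 39 were lower and the median was -0.15, against 57.1% and -0.04 over all genes. In the blocked fit 0 members were called, where 45 of all 8433 genes were. Within the high level 26 of 39 were lower (median -0.21) and within the middle level 20 of 39 (median -0.01). The share over all genes was not computed within a level, so these counts have no background.

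**Figure D4:**
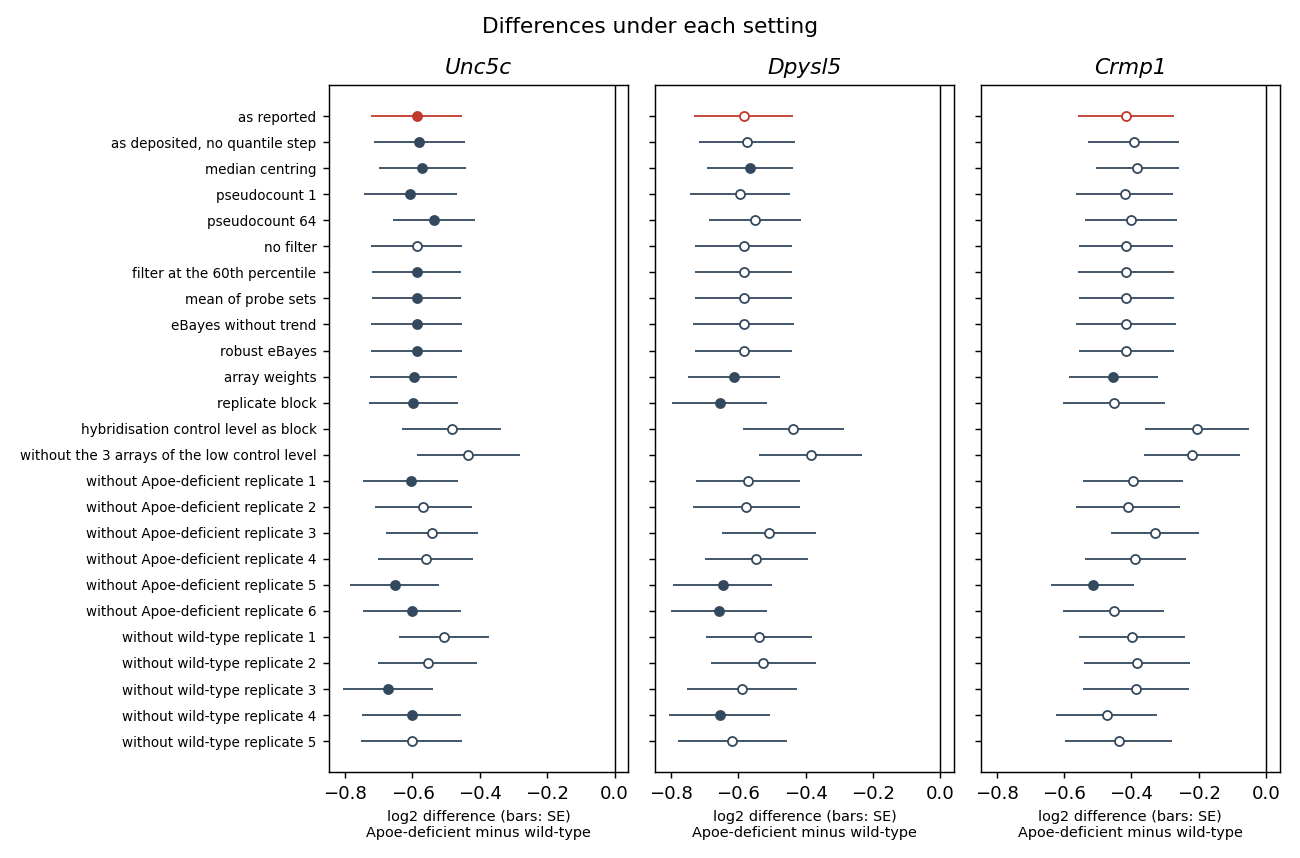
Log2 difference of Unc5c, Dpysl5 and Crmp1 under the reported setting (red) and each alternative, with SE. Filled points passed an adjusted p of 0.05 in that fit. All values lie below 0, and those nearest 0 come from blocking on the control level and from leaving out the 3 low arrays.

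Guidance genes below the filter were 26 of the 65, with 37 probe sets. They included the Eph receptor genes Epha1, Epha2, Epha3, Epha4, Epha6, Epha8, Ephb3 and Ephb4, the repellent genes Sema3a, Sema3e and Sema3f, and Dpysl2, the CRMP2 gene. Of the 37 probe sets 28 were below the cutoff, which lies at a normalised signal of about 110, on every array. Ephb3 lay just outside, above the cutoff on 4 arrays, all Apoe-deficient. Its signals in Apoe-deficient ganglia were 28.7 (lowest), 148.2 (median) and 235.7 (highest), and in wild-type ganglia 38.0, 36.1, 28.9, 37.3 and 24.1. A Sema5a probe set had 13.7 (lowest), 132.4 (median) and 255.3 (highest) in Apoe-deficient ganglia, and 12.4, 24.3, 16.9, 34.7 and 6.9 in wild-type ganglia. Both overlapped between groups, and neither passed a fit without the filter (adjusted p = 0.17 and 0.15). A low signal of a probe set does not show that the gene is off.

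Genes downstream of the receptors were taken from a list of 57 effectors, of which 41 were tested, 1 was lower and 0 were higher past the threshold. The background over all tested genes was 0.676% called lower and 57.0% lower in mean. In the list 26 were lower and 15 higher in mean, and the median was -0.09. At an unadjusted limma p under 0.05 there were 12 of the 41 in either direction, against 20.3% of all tested genes. Farp1, which encodes an exchange factor for small GTPases that acts in semaphorin and plexin signalling, fell by 0.52 (SE 0.12, adjusted p = 0.042). Its signals were 166.9 (lowest), 248.8 (median) and 267.5 (highest) in Apoe-deficient ganglia, and 361.1, 325.4, 381.3, 289.1 and 358.0 in wild-type ganglia, with no overlap. The call was lost in 12 of 24 alternatives, with adjusted p-values up to 0.26. Ablim1 (-0.43, adjusted p = 0.065), whose protein binds actin, and Srgap3 (-0.42, adjusted p = 0.10), a Slit and Robo effector gene, came next by p and did not pass. On the other side, the adaptor gene Nck1 lay at 0.41 (SE 0.13, adjusted p = 0.11). The small GTPase gene Rhoa lay at 0.27 (SE 0.09, adjusted p = 0.12), with no overlap between groups. Neither passed, and both are named after their values were seen.

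A second list held 45 other cues, receptors and adhesion molecules, of which 30 were tested. Past the threshold 1 was lower and 1 higher, where 0.676% of all tested genes were called lower and 1.26% higher. In mean 19 were lower and 11 higher, where 57.0% of all tested genes were lower. An unadjusted limma p under 0.05 was found for 6 of the 30, against 20.3% of all tested genes. Ncam1, a neural adhesion molecule gene, fell by 0.45 (SE 0.11, adjusted p = 0.046). The chemokine gene Cxcl12 rose by 1.25 (SE 0.30, adjusted p = 0.046), with signals of 830.5 (lowest), 1062.5 (median) and 3224.0 (highest) in Apoe-deficient ganglia, and of 371.4, 491.8, 725.4, 565.2 and 506.8 in wild-type ganglia, with no overlap. The Ncam1 call was lost in 15 of 24 alternatives and the Cxcl12 call in 14, among them the mean of the probe sets of each gene, which gave -0.21 for Ncam1 and 0.71 for Cxcl12. Ncam1 signals were 3010.6 (lowest), 3342.7 (median) and 3785.0 (highest) in Apoe-deficient ganglia, and 5888.2, 5044.9, 4507.0, 3940.5 and 4356.0 in wild-type ganglia, with no overlap on the deposited scale and 1 Apoe-deficient array inside the wild-type range after normalisation. L1cam, another axonal adhesion gene, lay at -0.48 (SE 0.13, adjusted p = 0.064). The median of this list was -0.06.

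Across the series, Apoe itself checked the labels, with a signal of 143 ± 84.6 in Apoe-deficient ganglia (SD, n = 6), against 15155 ± 3020.3 in wild-type ganglia (SD, n = 5). Median array signals lay between 163.0 and 188.6. Tested members lay on 17 chromosomes. Dpysl4 and Sema4b share chromosome 7 with Apoe, and neither passed. Fibroblast markers summed to 11218 to 17641 in Apoe-deficient ganglia, against 8983 to 13065 in wild-type ganglia, with 0 of 9 called. Satellite glia and Schwann cell markers summed to 11881 to 22029 in Apoe-deficient ganglia, against 11424 to 18948 in wild-type ganglia, with 0 of 7 called. White adipocyte markers summed to 3819 to 27499 in Apoe-deficient ganglia, against 11204 to 35087 in wild-type ganglia, with 0 of 6 called. Of 5 smooth muscle markers 0 were called. The median log2 difference was 0.37 over fibroblast, 0.06 over satellite glia and Schwann cell, -0.74 over white adipocyte and 0.16 over smooth muscle markers. Mast cell markers were called higher in 4 of 7 tested genes and B and plasma cell markers in 2 of 4. Their part in the guidance gene values was not tested.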

How the data were processed

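RNA of laser-captured ganglia was hybridised to 11 probe set arrays, 6 Apoe-deficient and 5 wild-type. The authors deposited a linear signal (intensity) for each probe set, and the submitters' processing notes name GCOS 1.4. No source used here names the signal algorithm. Each array had a 2% trimmed mean near 500.2, tested on the values. Control probe sets (64 of 22690) were left out. Signals were taken to log2(signal + 16), quantile normalised and filtered at the 40th percentile on at least 5 arrays. A gene with several single-gene probe sets took the one with the highest mean, and 8433 genes were fitted with limma 3.58.1 in R 4.3.3 (intensity trend, two-sided, Benjamini-Hochberg, threshold 0.05). Genes were named by annotation symbols.

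The members, families, lists, named genes and alternatives were chosen with earlier results of these data known. Named were called members, Unc5c, Dpysl5 and Crmp1, the smallest p of each family and direction, the 12 smallest p, members without overlap, members whose probe sets disagreed in direction, and in each of the other lists the called genes and the 3 of smallest p, and Apoe. Other members are given as values. Cell type sums add deposited signals of marker genes. Replicate numbers were not used to pair samples in the reported fit. Figures were drawn with matplotlib 3.10.9. The number of arrays limits the precision.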

Additional observations from a re-analysis of the deposited data

Results flagged for a closer look

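In 4 of 64 groups of named gene values, 1 array stood apart from its group by Dixon's ratio of gap to range, and chance flags about 1 group in 20. Sema4g was low on Apoe-deficient replicate 2 (log2 value 6.99, the others from 7.47 to 7.58, ratio 0.817). Efnb2 was low on Apoe-deficient replicate 6 (5.42, the others from 7.16 to 7.75, ratio 0.746). Apoe was low on Apoe-deficient replicate 3 (4.64, the others from 7.09 to 8.18, ratio 0.692). Sema3c was low on wild-type replicate 3 (6.44, the others higher, up to 7.11, ratio 0.842).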

How the results depend on the processing

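Axon guidance genes called lower numbered 1 of 39 as reported, with 0 called higher under every alternative run. They numbered 2 under median centring, 3 with array weights and 0 without the filter, with the control level as block, or without the 3 arrays of the low control level. Leaving out 1 array gave from 0 to 3, with 0 without Apoe-deficient replicates 2, 3 or 4 or wild-type replicates 1, 2 or 5. The genes called were Crmp1, Dpysl5 and Unc5c without Apoe-deficient replicate 5, and Dpysl5, Sema4g and Unc5c without wild-type replicate 4. With the replicate number as a block there were 2, Unc5c and Dpysl5 (-0.65, adjusted p = 0.043). Deviations of same-numbered samples had correlations of 0.15, -0.18, -0.03, -0.0003 and -0.18. The labels give no pairing beyond the number, and the correlations cannot show whether such samples shared any handling. Over all genes, 163 were called as reported, 668 with array weights, 45 with the control level as block, 24 without the low arrays and 75 to 267 without 1 array. The cause was not tested.

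The Unc5c difference ran from -0.67 to -0.43 over 24 alternatives and its adjusted p from 0.019 to 0.35. Dpysl5 ran from -0.66 to -0.38 and was called in 6, and Crmp1 from -0.52 to -0.21 and was called in 2. Directions turned for 7 genes near 0, none of them called. With the control level as block, Sema3b was 0.26, Sema3c -0.10 and Efnb2 -0.33. Without the low arrays these were 0.27, -0.10 and -0.40. With the mean of probe sets, Efnb1 was -0.010, Efnb2 -0.31, Sema4a -0.16 and Unc50 -0.0021. Efnb1 was -0.043 with array weights and -0.056 with the replicate block. Without 1 array, Sema3b ran from -0.19 to 0.071, Sema3c from -0.025 to 0.19, Epha7 from -0.045 to 0.26, Efnb1 from -0.056 to 0.11, Efnb2 from -0.11 to 0.37, Sema4a from -0.072 to 0.094 and Unc50 from -0.077 to 0.33. Signals under the filter, 26 of the 65 genes, limit what can be said of the Eph receptors most, with 8 of 11 genes there.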
